A study of Mus musculus with 6 samples.

Results

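A group of 10 fibroblast growth factor (FGF) pathway genes was followed in *Pdx1*-lineage cells of the E10.5 mouse embryo with and without *mir-302*. It consists of the ligand gene *Fgf10*, the 4 receptor genes *Fgfr1*, *Fgfr2*, *Fgfr3* and *Fgfr4*, and 5 genes commonly read as feedback targets of the pathway, namely *Spry1*, *Spry2*, *Spry4*, *Etv4* and *Etv5*. These genes were selected from the table by their symbols and make up 10 of the 55414 genes in the count table. All 10 passed edgeR's filter on low counts, which left 16353 genes to be tested. The control libraries (WT) carry the genotype Pdx1-Cre+, Tdtomato+, miR-302WT, and the knockout libraries (KO) carry Pdx1-Cre+, Tdtomato+, miR-302KO, with 3 libraries each. Both groups therefore share the Cre transgene and the red reporter. *Pdx1-Cre*, which is active from the *Pdx1* promoter in the early pancreatic buds and the neighbouring gut, switches on tdTomato from the *Rosa26* locus by removing a stop cassette, and the labelled cells were sorted from the trunk of embryos of miR-302+/- parents. The sort thus keeps every descendant of a cell that once had Cre activity, whether pancreatic or not, and *mir-302* is missing from the whole KO embryo and not from the labelled cells alone. The sources used here do not say whether a library is 1 embryo or a pool of embryos, so p-values measure the spread between these libraries, which may be partly technical.

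FGFs are secreted proteins that bind receptor tyrosine kinases on neighbouring cells, and the activated receptors signal through adaptor proteins, Ras and the kinases of the ERK cascade. In the pancreatic bud, the mesenchyme around the epithelium makes FGF10, and the epithelial progenitors receive it through a splice form of FGFR2 and keep dividing. Sprouty proteins restrain the cascade and ETV4 and ETV5 carry its signal to target genes, and the transcripts of both groups are induced by the pathway, so their levels are often used as a readout of FGF activity.

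The deleted cluster makes small RNAs whose bases 2 to 8, the seed, pair with sites in the 3′ untranslated regions (UTRs) of messenger RNAs. The mature sequences are shown because the site search rests on the seed AAGUGCU. The cluster also makes miR-302a-3p. They are taken from RefSeq on GRCm38.p6, where they lie on the plus strand of chromosome 3, and capitals mark bases 2 to 8. The sequence of miR-302b-3p is at chr3:127545275-127545297, that of miR-302d-3p at chr3:127545665-127545687 and that of miR-302c-3p at chr3:127545406-127545427. The first 2 sequences share the seed AAGUGCU, and miR-302c-3p, which starts 1 base later, holds the same letters from its first base on. Bases 2 to 8 of miR-302c-3p were not searched as a seed of their own.
mmu-miR-302b-3p: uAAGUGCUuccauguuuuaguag
mmu-miR-302d-3p: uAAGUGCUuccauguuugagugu
mmu-miR-302c-3p: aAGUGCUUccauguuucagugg

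A target site for the shared seed was counted as an 8mer (AGCACTTA), a 7mer-m8 (AGCACTT) or a 7mer-A1 (GCACTTA), each stretch once, on the transcript strand of the longest annotated 3′UTR in GENCODE M21. Among the 10 genes, *Fgf10* alone held a site, a 7mer-m8 at bases 481 to 487 of its 2799-base 3′UTR. The other 9 genes, with 3′UTRs of 584 bases (*Fgfr4*) to 3559 bases (*Spry4*), held 0 sites. At least 1 site was present in 20.6% of the tested genes with a 3′UTR (2834 of 13768). The *Fgf10* site is shown with the bases around it, the site in capitals. A match of letters is a description and not proof of a site, and no match says only that these letters are not in this 3′UTR.
*Fgf10* 3′UTR: atttactggaaAGCACTTgggtcatatca

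Levels are given as CPM, a gene's counts relative to the total of its library after scaling by edgeR's TMM factors, in the order of replicates 1, 2 and 3. Fold changes are KO against WT on the log2 scale, and adjusted p-values carry the Benjamini-Hochberg correction over all genes tested. The labels call these cells pancreatic progenitors. *Pdx1* ran from 73.1 to 107.5 CPM, *Sox9* from 177.8 to 259.1 CPM, *Cpa1* from 24.8 to 103.9 CPM and *Ptf1a* from 1.52 to 4.96 CPM over the 6 libraries. Markers of other cells were present too, and 3 libraries stood apart by those of blood. The summed level of 9 blood markers was 15950 CPM in WT replicate 3, 6391 CPM in KO replicate 1 and 337.2 CPM in KO replicate 3, and 0.969 to 3.18 CPM in the others. Every KO library exceeded every WT library for 3 of 8 gut endoderm markers tested and 3 of 17 progenitor markers, but not the 4 named above. The reverse order held for 0 of the 8 and 1 of the 17. Over all genes the shares were 8.36% and 7.99%. None of these markers passed edgeR's adjusted test, which called 0.0% of all genes. DESeq2's Wald test gave an adjusted p under 0.05 to 3 of the 11 gut endoderm markers found and to 3 of the 17 progenitor markers. Over all genes with a DESeq2 adjusted p, that share was 4.87%. In bulk libraries, fewer cells of a type and less RNA per cell cannot be told apart.

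None of the 10 genes reached an adjusted p under 0.05 between the genotypes by the quasi-likelihood test of edgeR with Benjamini-Hochberg adjustment. This test called 0.0% of all genes. DESeq2's Wald test called 0 of the 9 genes to which it gave an adjusted p, all but *Fgf10*, and 4.87% of all genes with one. By the unadjusted p of edgeR's test, 1 of the 10 was under 0.05, namely *Spry1*, beside 10.4% of all genes. One of the 10, again *Spry1*, had each KO library above each WT library, a pattern shown by 8.36% of all genes. The reverse order was seen in 0 of the 10 and in 7.99% of all genes. The fitted fold change was above 0 for 7 of the 10 and below 0 for 3, where 45.6% of all genes were above 0, with a median of 0.17 beside a median of -0.02 over all genes tested.

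**Figure D1:**
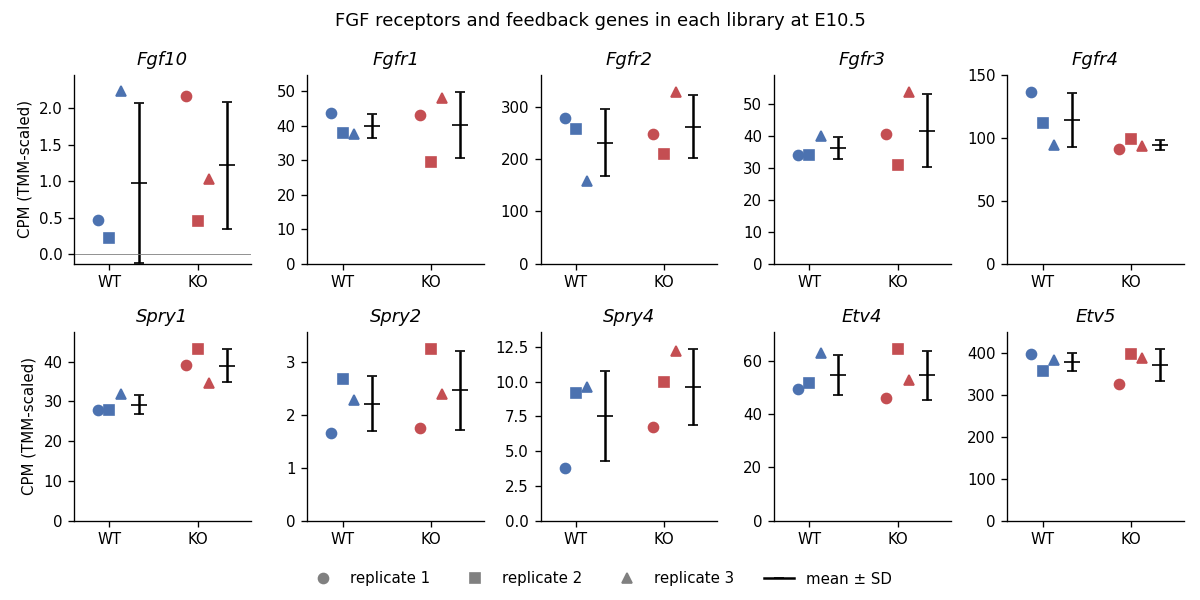
TMM-scaled CPM (vertical axes, each with its own range) of the 10 genes in the 3 WT libraries (blue) and the 3 KO libraries (red), with marker shape giving the replicate number and black bars the mean ± SD. The genotypes overlap in every panel but that of *Spry1*, where the WT libraries lie at 27.8 to 31.9 CPM and the KO libraries at 34.7 to 43.1 CPM.

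*Fgf10* (ENSMUSG00000021732.15) was the one ligand gene among the 10 and by far the scarcest. It had 10, 4 and 46 reads in the WT libraries and 58, 8 and 19 reads in the KO libraries. These counts correspond to 0.471, 0.224 and 2.23 CPM in WT and to 2.16, 0.456 and 1.03 CPM in KO. The WT libraries alone spanned the whole range, and the KO libraries lay within it. *Fgf10* averaged 0.976 ± 1.10 CPM in WT against 1.22 ± 0.868 CPM for KO (SD, n = 3 each). The log2 fold change was 0.33 with a standard error of 0.88 (edgeR's quasi-likelihood test, Benjamini-Hochberg adjusted p = 0.951), and its 95% interval from -1.74 to 2.40 includes severalfold differences in either direction.

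The libraries with the most *Fgf10* were also those with the most RNA of mesenchyme markers. The summed level of the 18 mesenchyme markers was 634.7, 421.8 and 1370 CPM over the WT libraries and 1512, 271.2 and 1229 CPM over the KO libraries. WT replicate 3, KO replicate 1 and KO replicate 3 were thus the highest for both measures. *Isl1*, which is also a marker of endocrine cells, accounted for 219.1 CPM of the WT replicate 2 sum and for 213.9 CPM of that of KO replicate 2. Without it the sums were 542.0, 202.7 and 1190.9 CPM in WT and 1351.1, 57.4 and 1138.7 CPM in KO, with the same 3 libraries highest. The collagen gene *Col3a1* ran from 0 CPM in KO replicate 2 to 517.5 CPM in KO replicate 1. In KO replicate 2, where *Fgf10* had 8 reads, 9 of the 18 markers were at 0, *Col1a1*, *Col3a1* and *Prrx1* among them, while *Col1a2* was at 34.9 CPM and *Pdgfrb* at 11.3 CPM. Each genotype held libraries of both kinds, and the part of the mesenchymal RNA in the *Fgf10* values was not tested.

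**Figure D2:**
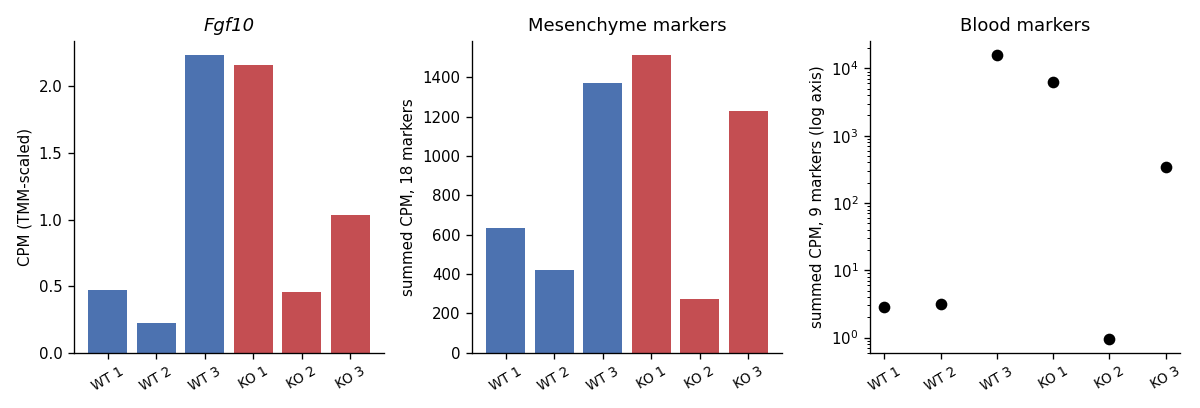
*Fgf10* in TMM-scaled CPM (left), the summed CPM of 18 mesenchyme markers (middle) and the summed CPM of 9 blood markers on a log axis (right) in each library, with WT bars in blue and KO bars in red. WT replicate 3, KO replicate 1 and KO replicate 3 are the 3 highest libraries in each panel, with *Fgf10* at 2.23, 2.16 and 1.03 CPM.

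All 4 receptor genes were expressed, and none passed the test between genotypes. *Fgfr2* (ENSMUSG00000030849.19), the receptor gene through which the pancreatic epithelium is known to receive FGF10, had the most reads of the 4. It was at 279.2, 257.3 and 159.3 CPM over the WT libraries and at 249.3, 209.8 and 328.8 CPM over the KO libraries. The lowest library was WT and the highest KO, whereas of the other 4 the WT libraries were the higher ones. The mean was 232.0 ± 63.9 CPM in WT against 262.7 ± 60.6 CPM for KO (SD, n = 3 each). The log2 fold change of *Fgfr2* was 0.18 (standard error 0.24, 95% interval -0.38 to 0.74, adjusted p = 0.893 by the quasi-likelihood test of edgeR with Benjamini-Hochberg adjustment). WT replicate 3, the library lowest in *Fgfr2*, was also lowest in the epithelial gene *Epcam*, at 356.1 CPM against 446.7 to 581.2 CPM in the others. The epithelial gene *Cdh1*, at 568.1 CPM in that library, was lowest in KO replicate 1 with 440.9 CPM. Counts per gene do not separate the epithelial from the mesenchymal splice form. In GENCODE M21 an exon of *Fgfr2* overlaps one of *Ctbp2* on the same strand, so reads there could have gone to either gene and the *Fgfr2* level is uncertain to that extent. *Ctbp2* itself was at 93.4 to 118.4 CPM.

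*Fgfr4* (ENSMUSG00000005320.10), which encodes a receptor known for liver and gut endoderm and for binding endocrine FGFs, had the lowest unadjusted p of the receptors. Its level was 136.7, 111.8 and 94.5 CPM over the WT libraries and 91.1, 99.0 and 93.3 CPM over the KO libraries. WT replicates 1 and 2 lay above all KO libraries, and WT replicate 3 lay among them. The WT libraries also spread more, with 114.3 ± 21.2 CPM in WT against 94.5 ± 4.07 CPM for KO (SD, n = 3 each). On the log2 scale the difference was -0.27 (standard error 0.13, 95% interval -0.59 to 0.04, adjusted p = 0.552 by the quasi-likelihood test of edgeR with Benjamini-Hochberg adjustment). A two-sided exact permutation test of log2 CPM gave p = 0.2, where 3 libraries against 3 cannot give less than 0.1. The summed level of 9 liver markers was 1766, 2416 and 1092 CPM over the WT libraries and 1869, 922.8 and 2717 CPM over the KO libraries. WT replicate 3 was the lowest WT library for both this sum and *Fgfr4*, while WT replicate 2 had the highest WT sum and WT replicate 1 the most *Fgfr4*. Between KO replicates 2 and 3, the lowest and highest in the sum, *Fgfr4* differed little, at 99.0 and 93.3 CPM. The part of liver RNA in the *Fgfr4* values was not tested.

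*Fgfr1* (ENSMUSG00000031565.19), the receptor gene usually associated with mesenchyme and broad early expression, was at 43.7, 37.9 and 37.6 CPM in WT and at 43.2, 29.4 and 47.8 CPM in KO. The KO libraries enclosed the WT libraries, and KO replicate 2, the library with the least mesenchymal marker RNA, was the lowest. WT replicate 3, which had the most of that RNA in WT, was the lowest WT library. The log2 fold change of *Fgfr1* was 0.01 with a 95% interval from -0.44 to 0.46 (adjusted p = 0.992, edgeR with Benjamini-Hochberg adjustment). *Fgfr3* (ENSMUSG00000054252.19), a further receptor gene, was at 34.3, 34.2 and 40.2 CPM in WT and at 40.6, 30.9 and 53.9 CPM in KO. KO replicate 2 was again the lowest and KO replicate 3 the highest, as for *Fgfr1*. Its log2 fold change was 0.21 with a 95% interval from -0.28 to 0.69 (adjusted p = 0.839, edgeR with Benjamini-Hochberg adjustment). For both genes the SD in KO, 9.58 CPM for *Fgfr1* and 11.5 CPM for *Fgfr3*, exceeded the SD in WT, 3.44 and 3.45 CPM.

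Levels of different genes were compared only per length, as CPM per kb of the union of a gene's exons. In WT, *Fgfr4* was at 32.3 ± 5.99 CPM per kb and *Fgfr2* at 22.5 ± 6.18 CPM per kb (SD, n = 3). Their ranges, 26.7 to 38.6 and 15.4 to 27.0 CPM per kb, overlapped, but within each WT library *Fgfr4* was above *Fgfr2*. In KO replicate 3 *Fgfr4* was below *Fgfr2*, at 26.35 and 31.84 CPM per kb. *Fgfr3* at 5.06 ± 0.482 and *Fgfr1* at 4.03 ± 0.349 CPM per kb were lower than both in each WT library. The order of the first 2 rests on the length used. Per kb of the longest coding transcript, a length tried after the data were seen, *Fgfr2* was at 53.8 ± 14.8 and *Fgfr4* at 34.4 ± 6.38 CPM per kb in WT. Under either length the 2 genes were above *Fgfr3* and *Fgfr1* in all 6 libraries.

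Of the Sprouty genes, *Spry1* was the one gene whose genotypes did not overlap. *Spry1* (ENSMUSG00000037211.13) encodes an inhibitor of signalling from receptor tyrosine kinases to Ras. It was at 27.8, 27.9 and 31.9 CPM over the WT libraries and at 39.2, 43.1 and 34.7 CPM over the KO libraries. The nearest libraries, WT replicate 3 and KO replicate 3, lay less than 3 CPM apart. *Spry1* averaged 29.2 ± 2.34 CPM in WT against 39.0 ± 4.24 CPM for KO (SD, n = 3 each), and the fitted ratio was 1.34 with a 95% interval from 1.07 to 1.66. On the log2 scale this was 0.42 with a standard error of 0.13. The unadjusted p was 0.0166 and the adjusted p was 0.297 by the quasi-likelihood test of edgeR with Benjamini-Hochberg adjustment, and DESeq2's adjusted p was 0.0838. A two-sided exact permutation test of log2 CPM gave p = 0.1, the smallest value that 3 libraries against 3 allow. The difference thus failed the correction in both tools.

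*Spry1* also had the most GC-rich stretch of the 10 genes, with 86.0% GC in its richest 200 bases. Genes with such a stretch of at least 75% GC shared a shift in these libraries. Their median log2 level, relative to the other genes, was shifted by -0.15, -0.03 and -0.13 in the WT libraries and by 0.14, 0.11 and 0.08 in the KO libraries. The median log2 fold change was 0.14 over the 3175 tested genes with the stretch and -0.04 over the 10670 without it. With offsets that remove a smooth trend on this GC share in each library, the log2 fold change of *Spry1* was 0.01 (unadjusted p = 0.92, edgeR). A stretch of at least 75% GC is present in 7 of the 10 genes, or 70.0% of them, beside 22.9% of the tested genes for which it was known. With the offsets the median log2 fold change of the 10 was -0.0023. In that fit 1 of the 10 had an unadjusted p under 0.05, beside 1445 of 13845 genes. This was not *Spry1* but *Fgfr4*, with a log2 fold change of -0.33 (unadjusted p = 0.0426, adjusted p = 0.453, edgeR). The stretch is thus present in all 4 receptor genes and in *Spry1*, *Etv4* and *Etv5*, and absent from *Fgf10*, *Spry2* and *Spry4*. Whether the shift follows genotype or the making of the libraries cannot be told apart, since every KO library was shifted up and every WT library down.

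**Figure D3:**
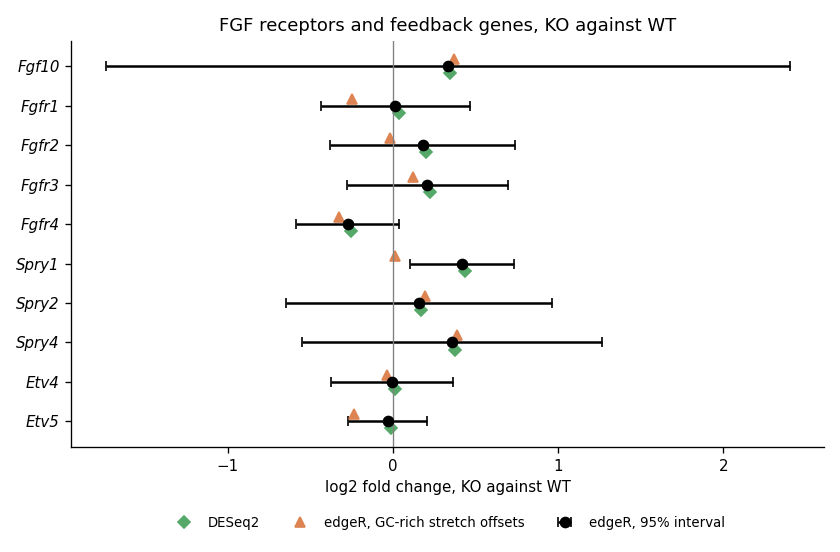
Log2 fold change of the 10 genes, KO against WT (horizontal axis), from edgeR with its 95% interval (black circles and bars), from DESeq2 (green diamonds) and from edgeR with GC-rich stretch offsets (orange triangles). *Spry1* is the one gene whose edgeR interval, 0.10 to 0.73, does not include 0, and with the offsets its value is 0.01.

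*Spry2* (ENSMUSG00000022114.6) and *Spry4* (ENSMUSG00000024427.8), which encode related inhibitors, were expressed at low levels. *Spry2* was at 1.65, 2.68 and 2.28 CPM in WT and at 1.75, 3.25 and 2.39 CPM in KO. Its libraries of the 2 genotypes interleaved, and the log2 fold change was 0.16 with a 95% interval from -0.65 to 0.96 (adjusted p = 0.940, edgeR with Benjamini-Hochberg adjustment). *Spry4* was at 3.77, 9.16 and 9.61 CPM in WT and at 6.75, 9.97 and 12.2 CPM in KO. WT replicate 1 was the lowest library for both genes. For *Spry4* the log2 fold change was 0.36 with a 95% interval from -0.55 to 1.27 (adjusted p = 0.855, edgeR with Benjamini-Hochberg adjustment), and without WT replicate 1 it was close to 0, at 0.03. Per kb of exon, *Spry1* at 10.05 ± 0.806 CPM was above *Spry4* at 1.58 ± 0.684 CPM and *Spry2* at 1.06 ± 0.249 CPM in WT (SD, n = 3), and the ranges of the last 2 overlapped.

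The ETS transcription factor genes *Etv4* and *Etv5* showed the closest means of the feedback genes. *Etv5* (ENSMUSG00000013089.16) had the most reads of the 10 genes and, per kb of exon, the highest level. Its level was 398.8, 356.7 and 384.0 CPM over the WT libraries and 327.1, 399.0 and 388.6 CPM over the KO libraries. The 2 genotypes spanned nearly the same values, with KO replicate 1 the lowest library. *Etv5* averaged 379.8 ± 21.3 CPM in WT against 371.6 ± 38.9 CPM for KO (SD, n = 3 each). On the log2 scale the difference was -0.03 (standard error 0.10, adjusted p = 0.960 by the quasi-likelihood test of edgeR with Benjamini-Hochberg adjustment), and its 95% interval from -0.27 to 0.21 was the narrowest of the 10. With the GC-rich stretch offsets it was -0.24 (unadjusted p = 0.0817, edgeR).

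*Etv4* (ENSMUSG00000017724.15) was at 49.3, 51.7 and 63.0 CPM in WT and at 46.1, 64.5 and 52.9 CPM in KO. The lowest and the highest library were both KO, and the means of 54.6 ± 7.35 and 54.5 ± 9.31 CPM nearly coincided (SD, n = 3 each). The log2 fold change was -0.0048 with a 95% interval from -0.38 to 0.37 (adjusted p = 0.996, edgeR with Benjamini-Hochberg adjustment). Per kb of exon, *Etv5* at 92.6 ± 5.20 CPM stood above *Etv4* at 17.6 ± 2.37 CPM in WT, and the order of all 10 genes from *Etv5* down to *Fgf10* was the same in KO.

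Feedback genes were also summarised per library, as the mean of the standardized log2 CPM of the 3 Sprouty and 2 ETS genes. This score was -0.81, -0.21 and 0.31 in the WT libraries and -0.70, 1.08 and 0.33 in the KO libraries. Replicate 1 of each genotype was low and KO replicate 2 was high, so the KO libraries alone spanned nearly the whole range of the score. The 5 genes most like it over the 6 libraries, by Pearson's r, were *Slco2a1* (0.994), *Gm10356* (0.981), *Dnaic2* (0.981), *Cldn2* (0.978) and *Gm44862* (0.976). With 6 libraries and 16353 genes to choose from, such values are a description only.

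The rest of the pathway was read from a list of 63 genes, of which 62 were found, all but *Spry3*, and 46 passed the filter on low counts. Of these 46, 29 had a fold change above 0 and 17 below 0, with a median log2 fold change of 0.10 beside -0.02 over all genes. None passed edgeR's adjusted test. An unadjusted p under 0.05 was reached by 10 of the 46 (21.7%), 7 of them higher in KO, beside 10.4% of all genes and 6.42% for higher alone. DESeq2 gave an adjusted p to 43 of the 46 and called 7 of them, beside 4.87% of all genes. In 7 of the 46 each KO library exceeded each WT library, and in 2 the order was reversed, beside 8.36% and 7.99% of all genes. A GC-rich stretch was present in 20 of the 46 (43.5%) and a seed site in 9 (19.6%).

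The adaptors and the Ras-ERK cascade held 6 of the 10 genes with an unadjusted p under 0.05, among 20 tested, with a median log2 fold change of 0.04. A set of 3 cascade genes, named after their values were seen, was higher in KO by DESeq2 but not by the main edgeR test. *Plcg1*, which encodes a phospholipase recruited by activated FGF receptors, was at 33.5, 79.7 and 36.9 CPM in WT and at 135.4, 112.2 and 116.1 CPM in KO. *Hras*, which encodes a Ras GTPase, was at 19.4, 32.3 and 17.6 CPM in WT and at 60.7, 57.2 and 32.2 CPM in KO. The adaptor gene *Grb2* was at 12.0, 29.1 and 15.2 CPM in WT and at 44.4, 40.8 and 28.3 CPM in KO. WT replicate 2 was the highest WT library for *Plcg1*, *Hras* and *Grb2* alike, and it overlapped the KO libraries for *Hras* and *Grb2*. The log2 fold changes were 1.28, 1.12 and 1.02 for *Plcg1*, *Hras* and *Grb2*, with adjusted p of 0.176, 0.223 and 0.330 by edgeR and of 0.000425, 0.00364 and 0.0276 by DESeq2. With 1 library left out at a time, edgeR's adjusted p ran from 0.0291 to 0.492 for *Plcg1*, from 0.108 to 0.585 for *Hras* and from 0.0618 to 0.704 for *Grb2*. It passed the threshold for *Plcg1* alone of these 3, and then in 1 of the 6 fits, that without WT replicate 2. With no filter on low counts, edgeR's adjusted p was 0.0465 for *Plcg1*, 0.0881 for *Hras* and 0.204 for *Grb2*. With the 2 hemoglobin-rich libraries out, WT replicate 3 and KO replicate 1, it was 0.9996 for each of the 3. That fit set 2 libraries against 2 and called 0 genes over the whole table. It kept KO replicate 3, which had 337.2 CPM of blood markers. The log2 fold changes in it were 1.035, 0.81 and 0.77 for *Plcg1*, *Hras* and *Grb2* (unadjusted p = 0.0474, 0.0818 and 0.150, edgeR). Each of the 3 has a stretch of at least 75% GC, with 76.0% in *Plcg1* and *Hras* and 78.0% in *Grb2*. With the offsets for that stretch their log2 fold changes were 1.24, 1.08 and 0.86.

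In the other direction, *Nras*, which also encodes a Ras GTPase, was at 147.6, 128.2 and 151.7 CPM in WT and at 107.5, 126.3 and 126.2 CPM in KO. Its KO libraries were all below its WT libraries, by under 2 CPM at the nearest, with a log2 fold change of -0.25 (adjusted p = 0.444, edgeR with Benjamini-Hochberg adjustment). *Sos1*, the gene of the exchange factor that loads Ras with GTP, had a log2 fold change of -0.31 (adjusted p = 0.625 by the same test). At 142.5 ± 12.5 CPM in WT (SD, n = 3), *Nras* had more reads than *Hras*.

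**Figure D4:**
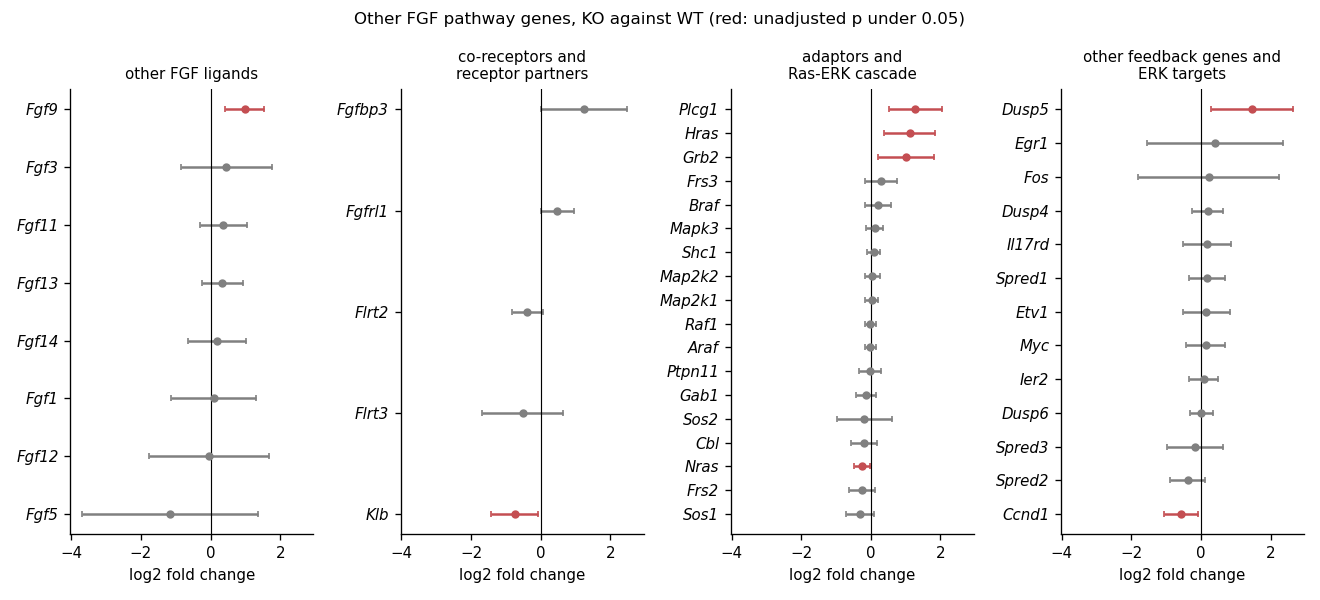
Log2 fold change, KO against WT, with 95% intervals (horizontal axes) for 44 of the 46 other FGF pathway genes tested, in 4 groups by role and sorted by value, with genes of unadjusted p under 0.05 in red. In the adaptors and Ras-ERK cascade the red genes above 0 run from *Grb2* at 1.02 to *Plcg1* at 1.28, while the median of that group is 0.04.

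Among the other ligand genes, 8 of 21 passed the filter, with a median log2 fold change of 0.26. *Fgf9*, which encodes a ligand of epithelium and mesothelium, was at 2.07, 2.57 and 2.53 CPM in WT and at 5.37, 4.56 and 4.19 CPM in KO. The genotypes did not overlap, and each KO library was over 1.5 times as high as any WT library. In *Fgf9* this gave a log2 fold change of 0.98 with a standard error of 0.24 (adjusted p = 0.167 by the quasi-likelihood test of edgeR with Benjamini-Hochberg adjustment, and 0.0488 by DESeq2). *Fgf9* has no stretch of at least 75% GC, and with the offsets its log2 fold change was 1.04. The other ligand genes named by the rule showed wider overlap. *Fgf5* was at 1.98, 0.894 and 5.49 CPM in WT and at 1.75, 0 and 1.91 CPM in KO. *Fgf13* and *Fgf12*, whose proteins stay inside the cell, had log2 fold changes of 0.34 and -0.05, with adjusted p of 0.751 and 0.992 by edgeR.

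Of the co-receptors and receptor partners, 5 of 8 were tested, 2 with values above 0 and 3 below, with a median log2 fold change of -0.38. *Klb*, which encodes the beta-Klotho co-receptor that endocrine FGFs need to bind FGFR4, was at 75.9, 64.1 and 36.9 CPM in WT and at 31.8, 28.8 and 44.7 CPM in KO. WT replicate 3 fell among the KO libraries, as it did for *Fgfr4*. For *Klb* the log2 fold change was -0.75 with a standard error of 0.29 (adjusted p = 0.407 by the quasi-likelihood test of edgeR with Benjamini-Hochberg adjustment). *Flrt2*, a transmembrane partner of FGF receptors, had a log2 fold change of -0.38 (adjusted p = 0.559, edgeR). *Fgfrl1*, a receptor without a kinase domain, and the FGF-binding protein gene *Fgfbp3* had log2 fold changes of 0.48 and 1.23, both with an adjusted p of 0.482 by edgeR, and *Fgfbp3* stayed under 2 CPM in every library.

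A further 13 feedback genes and ERK targets were tested, 10 with values above 0 and 3 below, with a median log2 fold change of 0.16. *Dusp6*, the ERK phosphatase gene most often paired with Sprouty genes as an FGF readout, was at 197.2, 177.6 and 201.9 CPM in WT and at 160.5, 236.6 and 183.7 CPM in KO. It was lowest in KO replicate 1 and highest in KO replicate 2, and its log2 fold change was 0.01 (adjusted p = 0.992, edgeR with Benjamini-Hochberg adjustment). *Etv5* too was lowest in KO replicate 1, but its KO replicate 2 and WT replicate 1 were nearly level, at 399.0 and 398.8 CPM. *Dusp5*, the gene of a nuclear ERK phosphatase, was at 2.50, 8.88 and 3.01 CPM in WT and at 15.6, 14.8 and 8.87 CPM in KO. WT replicate 2 and KO replicate 3 met at nearly the same value, and the log2 fold change was 1.45 with a standard error of 0.50 (adjusted p = 0.339 by edgeR and 0.0321 by DESeq2). *Dusp5* has a stretch of 79.5% GC, and with the offsets its log2 fold change was 1.23. Without the hemoglobin-rich libraries it was 1.08 (unadjusted p = 0.151, edgeR). With 1 library left out at a time, edgeR's adjusted p for *Dusp5* ran from 0.0430, without WT replicate 2, to 0.706. *Ccnd1*, which encodes cyclin D1, was at 171.9, 137.1 and 168.7 CPM in WT and at 94.8, 144.7 and 81.7 CPM in KO. KO replicate 2 lay within the WT range, and the log2 fold change was -0.57 with a standard error of 0.21 (adjusted p = 0.380 by edgeR and 0.126 by DESeq2). *Dusp4* and the Sprouty-related *Spred2* had log2 fold changes of 0.19 and -0.38, with adjusted p of 0.834 and 0.624 by edgeR.

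Seed sites in the pathway genes above are shown because they are the places where miR-302 could pair, with the site in capitals. *Fgf9* held an 8mer at bases 2402 to 2409 of its 3142-base 3′UTR and a 7mer-A1 nearer its start. *Nras* held a pair of 7mer-m8 sites and *Ccnd1* held a 7mer-m8. The second site of *Nras* has the same 29 bases around it as the site of *Il17rd*, another feedback gene.
*Fgf9* 8mer: atttatccaaaAGCACTTAttttattttat
*Fgf9* 7mer-A1: caatttgctctGCACTTActggctggtcc
*Nras* first 7mer-m8: ctgctgagaccAGCACTTggtcttgtttt
*Nras* second 7mer-m8: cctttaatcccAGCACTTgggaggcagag
*Ccnd1* 7mer-m8: ttccatttcaaAGCACTTttggtcagcta

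Of the 9 pathway genes tested that held a site, 7 had a fold change above 0 and 2 below, where 29 of all 46 were above 0. Among them, *Fgf9* had a log2 fold change of 0.98, *Braf* of 0.21, *Il17rd* of 0.18, *Spred1* of 0.17 and *Etv1* of 0.16, while *Nras* and *Ccnd1* had -0.25 and -0.57. For *Braf*, *Il17rd*, *Spred1* and *Etv1* the unadjusted p ran from 0.231 to 0.609 (edgeR). *Plcg1*, *Hras*, *Grb2* and *Dusp5*, with log2 fold changes of 1.02 to 1.45, held 0 sites. Among the receptors and feedback genes of the opening list, *Spry1* with 0.42 held 0 sites as well.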

How the data were processed

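The authors filtered the reads for quality, mapped them on GRCm39 by STAR, used GenomicAlignments to count them per gene, and deposited raw counts with 1 column per library. Tool versions, the gene annotation and the use of strand are not given in the sources used here. cDNA was made with SMART-seq v4 from polyadenylated RNA and libraries with Nextera XT. Total counts ran from 17352498 to 26634523 per library, and all per-library columns were used (0 left out). Antisense genes overlapping *Fgf10*, *Fgfr1*, *Fgfr3* and *Spry1* had at most 0.0745 CPM.

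From these counts, the quasi-likelihood test of edgeR 4.0.16 (R 4.3.3) was applied to all genes after filterByExpr and TMM scaling, at default settings, with genotype as the only term and Benjamini-Hochberg adjustment over all 16353 genes tested. DESeq2 1.42.0, with its defaults, was an alternative. Exact permutation tests (scipy 1.17.1) were two-sided. The 10 genes, the gene lists and the tests were chosen with earlier results of these data known. Genes named outside the 10 were the 2 with the smallest unadjusted p in each direction in each pathway group, the markers needed for a range and the 5 most similar genes. *Plcg1*, *Hras*, *Grb2*, *Dusp6*, *Braf*, *Il17rd*, *Spred1* and *Etv1* were named outside this rule, after their values were seen. Some genes this rule names are counted in their list but not reported here. A symbol was found for 94% of identifiers. Exon lengths, 3′UTRs and GC-rich stretches of 200 bases came from GENCODE M21 on GRCm38, so no gene coordinates are given. The main edgeR fit and the DESeq2 fit were tested on simulated counts, and the other alternatives were not. Where a gene had few reads, counting error limits its precision, and chi-square per degree of freedom between libraries of a genotype was 25.3 to 41.0, far above counting noise.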

Additional observations from a re-analysis of the deposited data

How the results depend on the processing

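None of the 10 genes passed the threshold under any of the 14 alternatives, with 0.0838 as the smallest adjusted p, although the number of genes called over the whole table moved from 0 to 699 with DESeq2, 264 with no filter on low counts and 0 to 217 when 1 library was left out (217 without WT replicate 2). Of 139 results for single genes, 116 kept their direction and 23 did not. The median log2 fold change of the 10 was 0.17 and moved to -0.0023 with the GC-rich stretch offsets and to 0.0199 to 0.27 when 1 library was left out. Direction changed for *Etv4* with DESeq2 (0.0125), DESeq2 size factors (0.0107), no filter (0.0045) and both hemoglobin-rich libraries out (0.24), for *Etv5* with those libraries out (0.0857), for *Fgfr1* with the replicate block (-0.0123), those libraries out (-0.0545) and the offsets (-0.25), and for *Fgfr2* with the offsets (-0.0192). Leaving out 1 library gave ranges of -0.39 to 1.83 for *Fgf10*, -0.0949 to 0.21 for *Fgfr1*, 0.0038 to 0.33 for *Fgfr2*, 0.02 to 0.40 for *Fgfr3*, -0.36 to -0.13 for *Fgfr4*, 0.36 to 0.53 for *Spry1*, -0.0772 to 0.37 for *Spry2*, 0.03 to 0.61 for *Spry4*, -0.13 to 0.14 for *Etv4* and -0.0711 to 0.0652 for *Etv5*. The pathway genes with an unadjusted p under 0.05 numbered 10, and 5 without the hemoglobin-rich libraries. Over all genes tested the numbers were 1700 and 773, so the count fell across the table too. When 1 library was left out, 5 to 12 pathway genes were under 0.05, and the number over all genes was not taken. The alternatives for the pathway count and the second gene length were chosen after the data were seen. *Fgf10* was filtered out when the hemoglobin-rich libraries, WT replicate 3 and KO replicate 1, were left out. KO replicate 3, which held less blood marker RNA than these but far more than the rest, stayed in that fit. The cause of these moves was not tested.

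The replicate numbers did not meet the bar for pairing the libraries. Deviations from the genotype means correlated at -0.21, 0.25 and 0.08 for the same numbers. They correlated at -0.13 for WT replicate 2 with KO replicate 1, whose library codes differ but share a prefix of unstated meaning. With the number as a block 0 genes were called and *Spry1* was at 0.42 (adjusted p = 0.455, edgeR). *Fgf10* had 4 to 58 reads per library and *Spry2* 35 to 57, so counting error bears on both.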
